A study of Mus musculus with 18 samples.

Results

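The 42 genes described here encode members of the nuclear receptor family of transcription regulators. They were chosen by name, as the genes of a fixed list found in the deposited expression table, and make up 42 of its 22708 genes. The rule that picks them reads gene names alone, but the list was chosen with earlier results of these data known. Eosinophils were sorted by flow cytometry from the small intestine of mice and their RNA was sequenced in bulk. The study asked what the aryl hydrocarbon receptor AHR does in these cells, and the series also holds samples labelled as lacking its repressor AHRR. The 18 libraries fall into 3 genotypes of 6, each with 3 females (F1 to F3) and 3 males (M1 to M3), named here by genotype and replicate label. The animals were wildtype (WT), *Ahr*-/- or labelled *Ahrr*-/-, of the strain given as C57/BL6, untreated, and the sorted cells were CD11b+MHC-II-SiglecF+SSChi eosinophils. The labels give no age, while the study's methods state an age range for its mice and matching by age and sex in each experiment. Both knockouts are labelled as deletions of the whole animal, so effects of the genotype on the sorted cells cannot be told apart from effects through other cells. By the study's methods, WT and *Ahr*-/- mice were neither littermates nor housed together, so genotype and housing cannot be told apart. The study's text does not report on the samples labelled *Ahrr*-/-.

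Many nuclear receptors sense small fat-soluble molecules, among them retinoic acid, steroid hormones, thyroid hormone, vitamin D, bile acids, oxysterols and fatty acids, and bind DNA as monomers, as homodimers or as heterodimers with a retinoid X receptor. Many recognise copies of the half-site AGGTCA. In the small intestine, where dietary lipids, bile acids and vitamin A are taken up, they are known for control of nutrient transport and of barrier and immune functions. AHR is also a ligand-activated transcription factor, but belongs to another family (bHLH-PAS) and binds a site with the core GCGTG.

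The authors deposited variance-stabilised expression values on a log2 scale, whose floor is the value of genes with 0 reads. Counts recovered from them were whole numbers within 0.0001. Total counts lay between 3842977 and 8149200 in WT (median 6022409), between 6581818 and 10284124 in *Ahr*-/- (median 9647589) and between 8788867 and 12046933 in the samples labelled *Ahrr*-/- (median 10371556), so low counts were least precise in WT. Levels below are normalized counts, which are recovered counts divided by the size factor of the library. Differences of genes are limma estimates on the deposited values, adjusted for sex. With the sexes balanced they equal differences of group means, and where libraries were left out they can depart from these. On this scale the change of a low gene is understated. The differences were tested with limma across all genes whose mean lay at least 1 above the lowest value, with sex as covariate, and a gene passed the test at a Benjamini-Hochberg adjusted p below 0.05.

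The targeted genes were examined first. *Ahr* reached 11721.4, 19571.7, 13967.2, 21591.5, 13581.4 and 10766.2 normalized counts in WT F1, F2, F3, M1, M2 and M3, and 24082.9, 25268.6, 19029.5, 23864.0, 26050.0 and 18084.1 in the *Ahr*-/- libraries in the same order. In the libraries labelled *Ahrr*-/- it reached 21894.4, 18343.5, 9616.6, 11215.1, 11994.7 and 8324.1. The *Ahr* total was thus not lower in *Ahr*-/- than in WT (difference 0.61, standard error 0.19, limma adjusted p = 0.0557). *Ahrr*, itself a target of AHR, gave 819.0, 989.9, 1135.7, 1026.6, 1280.6 and 1066.5 in WT and 0.0, 0.9, 9.4, 0.0, 1.9 and 0.8 in *Ahr*-/-. In the libraries labelled *Ahrr*-/- it gave 1888.1, 1519.2, 1043.5, 925.0, 1545.6 and 1033.0, within or above the WT range (difference from WT 0.28, standard error 0.18, limma adjusted p = 0.683). Gene totals cannot reveal a deletion of unknown extent, and the part removed in each line is not given in the sources used here. The AHR targets *Cyp1b1* and *Tiparp*, each chosen after its values were seen, were low in *Ahr*-/- with no overlap: *Cyp1b1* lay between 0.8 and 4.7 against 348.6 to 1133.6 in WT, and *Tiparp* between 620.5 and 1080.6 against 3466.9 to 7336.7. In the libraries labelled *Ahrr*-/- these genes spanned 552.8 to 1338.6 and 2639.6 to 9760.9. The *Ahr*-/- label therefore matched the loss of AHR targets, whereas no value here checks the *Ahrr*-/- label, and these samples are called labelled *Ahrr*-/- throughout.

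Markers were used to check the cells. Of 10 eosinophil markers 5 passed the minimum mean: *Siglecf* (836.8 to 3112.9 normalized counts over the 18 libraries), *Ccr3* (5285.6 to 15550.7), *Il5ra* (992.0 to 3206.1), *Prg2* (36.0 to 924.7) and *Alox15* (7154.7 to 27548.4), the most abundant of the list. The granule genes *Epx*, *Prg3*, *Ear1*, *Ear2* and *Ear6* stayed below it, with at most 30.2 normalized counts in any library, and *Ear6* was at 0 in 16 of 18. The summed eosinophil markers lay between 24866 and 38211 in WT, 38503 and 49555 in *Ahr*-/-, and 14322 and 38775 in the libraries labelled *Ahrr*-/-, so WT and *Ahr*-/- did not overlap. Their mean deposited value was 0.39 higher in *Ahr*-/- than in WT (exact two-sided permutation test, p = 0.00216, adjusted p = 0.0357 over 33 tests of marker lists).

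Transcripts known as markers of other cells were found too. All 16 markers of the intestinal epithelium passed the minimum mean and none was at 0 in any library, and whether they came from other cells or from the sorted cells themselves was not tested. Summed epithelial markers, led by *Sis*, spanned 6707 to 24861 in WT (median 11124), 5036 to 12324 in *Ahr*-/- (median 9684) and 7817 to 38356 in the libraries labelled *Ahrr*-/- (median 26197). The libraries labelled *Ahrr*-/- F3 (33758), M1 (38356) and M3 (37889) stood apart, each at over 2.5 times the median library, and WT F1 followed at 24861. The markers of goblet and Paneth cells (9 of 10 above the minimum, led by *Lyz1*) summed to 40980, 68467 and 65101 in those 3 libraries against 5765 to 30443 in the other 15. Fibroblast markers (4 of 8, led by *Col3a1*, with *Lum* at 0 in 10 libraries) summed to 982, 588 and 1755 against 53 to 227. The difference in mean epithelial marker value between *Ahr*-/- and the libraries labelled *Ahrr*-/- was 0.98 (exact two-sided permutation test, p = 0.0649, adjusted p = 0.152). The comparisons with the libraries labelled *Ahrr*-/- were therefore also fitted without these 3, an alternative chosen after the data were seen. Differences with those libraries are of all 12 unless the 3 are said to be left out.

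Of the other lists none passed between WT and *Ahr*-/-, where the goblet and Paneth cell list differed by -0.65, the acinar list by -1.41 and the endothelial list by -0.15 in mean value (exact permutation, adjusted p = 0.0974, 0.0816 and 0.0974). The neutrophil list (6 of 8 above the minimum, with *Ly6g* and *Camp* at 0 in 13 libraries each) was carried by *Retnlg* and summed to 24267 to 49019 in WT, 56077 to 113729 in *Ahr*-/- and 24506 to 45784 in the libraries labelled *Ahrr*-/-. Its mean deposited value differed by 0.23 between WT and *Ahr*-/- (exact permutation p = 0.47) and by 0.73 between WT and the libraries labelled *Ahrr*-/- (exact permutation p = 0.00216, adjusted p = 0.0357). *Ahr*-/- F3 held 9.19, while the other *Ahr*-/- libraries lay between 7.66 and 7.87, beside 7.67 to 8.15 in WT. Endothelial markers (3 of 7, carried by *Pecam1*) summed to 2562 to 3798 in WT, 1865 to 2335 in *Ahr*-/- and 1776 to 3820 in the libraries labelled *Ahrr*-/-, and their mean value was 0.35 higher in the latter than in *Ahr*-/- (exact permutation p = 0.00433, adjusted p = 0.0476). Labelled *Ahrr*-/- F3, M1 and M3 held 7.02, 7.15 and 6.92, and F1, F2 and M2 held 6.49, 6.64 and 6.63, beside 6.39 to 6.56 in *Ahr*-/-. Macrophage and dendritic cell markers (12 of 14, led by *Lyz2*) summed to 2448 to 5566, 2223 to 8316 and 2122 to 12099 in the 3 genotypes, and markers of B and plasma cells (3 of 6, led by *Jchain*) to 229 to 1775, 96 to 740 and 333 to 6045. Pancreatic acinar markers (5 of 10, led by *Ctrb1*, with *Amy2a5* at 0 in 13 libraries) reached 4348 in WT M3 and were at most 544 in *Ahr*-/-. T cell markers (0 of 8, led by *Cd3e*) summed to at most 145 in any library, and *Gata3* and *Ncr1* were at 0 in 12 and 17 libraries. Mast cell markers (1 of 7, *Kit*) summed to at most 538, with *Mcpt1*, *Mcpt2*, *Tpsb2*, *Fcer1a* and *Cma1* at 0 in 9 or more libraries. The source of these transcripts and their part in the receptor results were not tested, and in bulk RNA fewer cells of a type and less RNA per cell cannot be told apart.

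Nuclear receptor transcripts differed widely in level. Per kilobase of exon, the glucocorticoid receptor gene *Nr3c1* was the most abundant member in WT, at 256 ± 51.7 normalized counts per kb (SD, n = 6), above 94.0% of the 19374 genes ranked per kb. It was followed by *Hnf4g* (136 ± 59.2), *Rara* (131 ± 21.1), *Rxra* (122 ± 11.3) and *Vdr* (107 ± 56.4), and then by *Nr1h2* (69.1 ± 12.7), *Nr2c2* (54.8 ± 5.54), *Nr1h4* (44.0 ± 20.6), *Rxrb* (41.9 ± 5.26) and *Ppard* (27.3 ± 10.1). *Nr3c1* exceeded *Hnf4g* in 5 of 6 WT libraries, but the next genes could not be ordered beyond their spread. *Hnf4g* exceeded *Rara* in 2 of 6, *Rara* exceeded *Rxra* in 4 and *Rxra* exceeded *Vdr* in 4. *Hnf4g*, *Vdr* and *Nr1h4* had large SDs, and each had its highest WT value in F1, the WT library with the most epithelial markers.

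**Figure D1:**
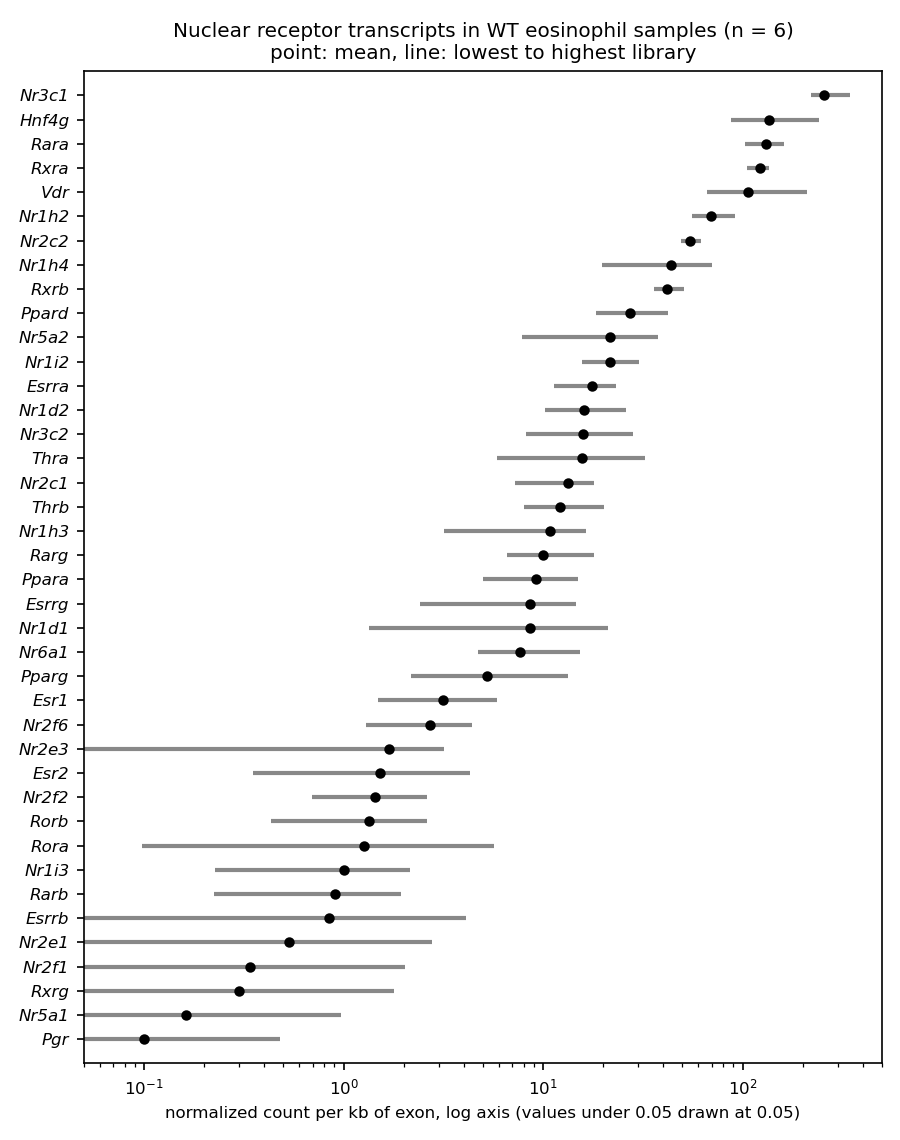
Normalized counts per kb of exon of the members in the 6 WT libraries on a log axis, as mean (point) and lowest to highest library (line). *Nr3c1* stands first at 256, and *Hnf4g*, *Rara*, *Rxra* and *Vdr* lie between 107 and 136 with overlapping ranges.

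The plot of levels per kb spans members from 256 per kb down to 0 for *Nr0b1* and *Nr0b2*, and 16 of the 42 never passed the minimum mean. By their highest recovered count in any library these were *Rora* (69), *Pparg* (45), *Nr1i3* (28), *Nr2f6* (27), *Rorb* (18), *Rarb* (16), *Nr0b2* (14), *Esrrb* (12), *Esr2* (11), *Nr2e3* (9), *Nr2f1* (9), *Nr2e1* (5), *Pgr* (5), *Rxrg* (2), *Nr5a1* (2) and *Nr0b1* (1). They include the retinoic acid receptor RARβ, the progesterone receptor, PPARγ and the RORs, and no statement on their change is made at this depth. A further member, *Nr2f2*, passed in the comparison of WT with the libraries labelled *Ahrr*-/- and in no other, through high values in the libraries labelled *Ahrr*-/- (median 32.6 against 10.5 in WT). Between 25 and 26 members were therefore tested per comparison.

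The members differed in which libraries held their highest values, as the map of members by library shows, and this split was not tested. For *Ppara*, *Nr1d1*, *Hnf4g*, *Nr2f2* and *Nr5a2*, the 3 libraries rich in epithelial markers held the 3 highest of the 18 values, and for 11 further members they held 2 of the top 3. For 9 members, *Rarg*, *Rxra*, *Rxrb*, *Nr1h2*, *Nr2c1*, *Nr2c2*, *Esr1*, *Esrra* and *Nr3c1*, they held none of the top 3. *Rara* had 1 of them, labelled *Ahrr*-/- M1, among its top 3. The members with all 3 include the HNF4 and LRH-1 genes, known from enterocytes, but also the clock repressor gene *Nr1d1* and the orphan receptor gene *Nr2f2*. The bile acid, xenobiotic and vitamin D receptor genes *Nr1h4*, *Nr1i2* and *Vdr* were among those with 2. Those with none include *Nr3c1*, *Rxra* and *Rxrb*, which most cells express, but also *Esr1*.

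**Figure D2:**
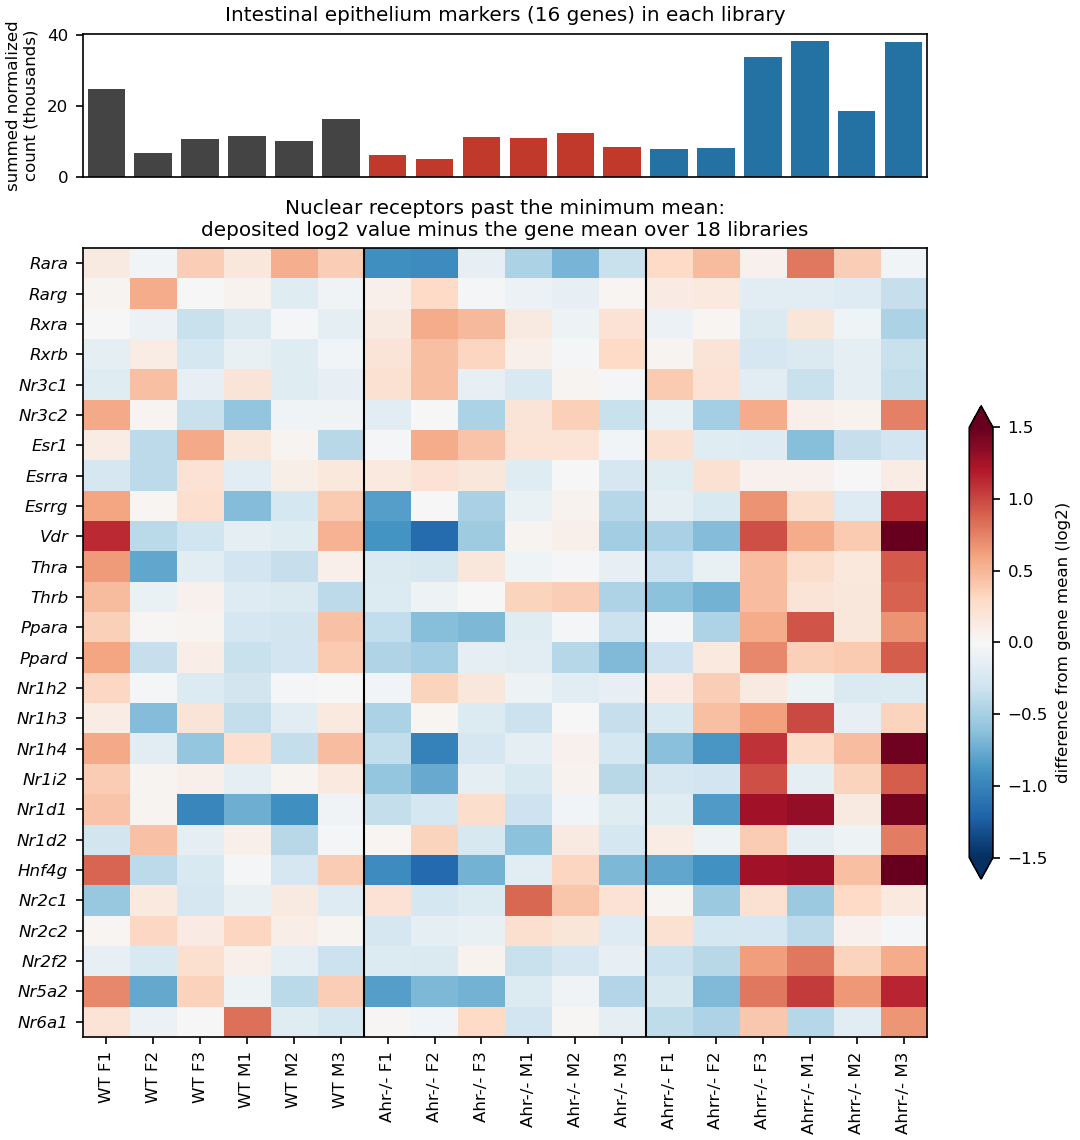
Summed normalized counts of 16 epithelial markers per library (bars, top) and the deposited log2 value of each tested member minus its mean over 18 libraries (colour, bottom; scale ends at 1.5 in both directions). *Hnf4g*, *Nr5a2* and *Nr1d1* are darkest red in labelled *Ahrr*-/- F3, M1 and M3, and *Rara* is blue in the 6 *Ahr*-/- libraries.

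In *Ahr*-/- eosinophils *Rara*, the gene of retinoic acid receptor α, fell and *Rxra*, that of its dimer partner retinoid X receptor α, rose. *Rara* passed under 21 of 21 alternative settings and *Rxra* under 8 of 21, so the call of *Rxra* is the weaker. These were 2 of the 25 members tested, beside 8.84% of all 11346 genes (5.16% higher and 3.68% lower in *Ahr*-/-), so the share of members that passed was close to that of all genes. An unadjusted p below 0.05 was reached by 10 of the 25 members, these 2 included, and by 23.3% of all genes. The median difference of the members was -0.05, against 0.00 over all genes tested. *Rara* was the 1 member tested whose WT and *Ahr*-/- values did not overlap, beside 4.51% of all genes tested.

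**Figure D3:**
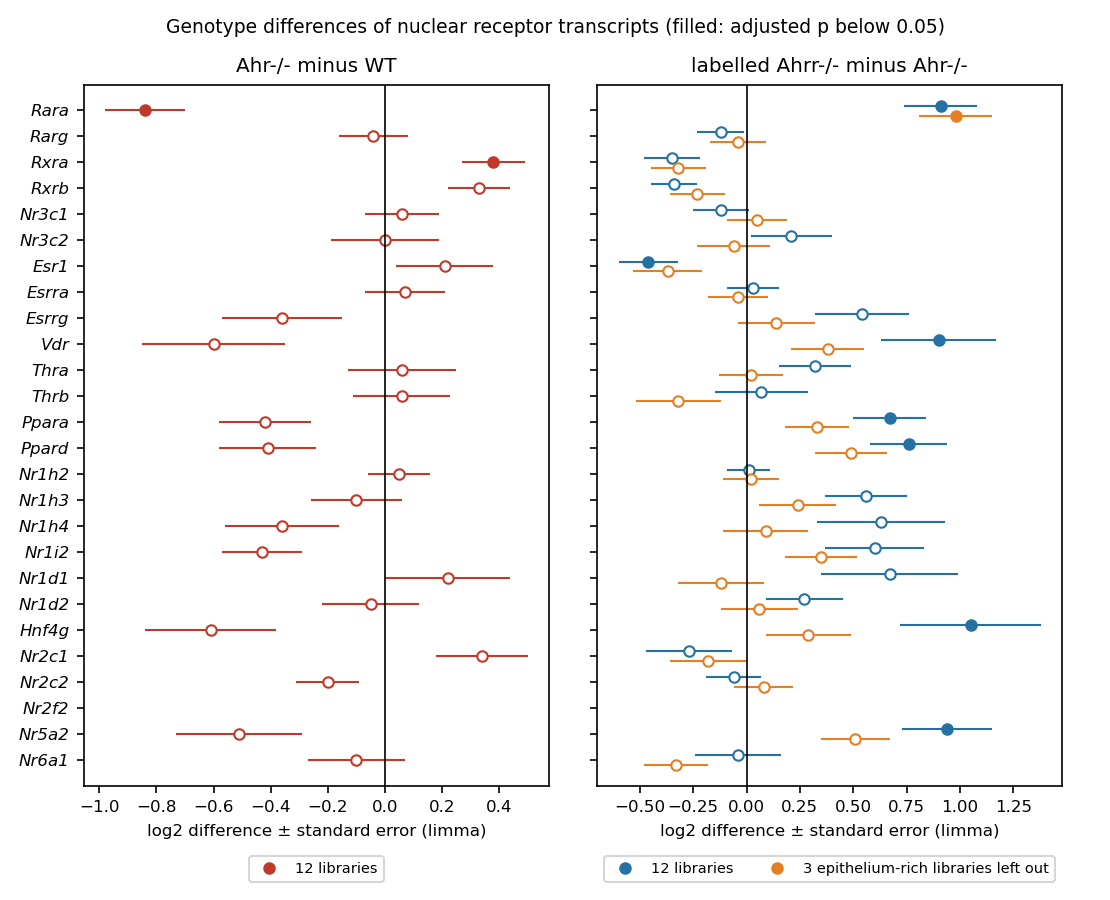
Log2 differences with standard errors (limma) of the members, *Ahr*-/- minus WT (left) and labelled *Ahrr*-/- minus *Ahr*-/- (right), with 12 libraries or without the 3 rich in epithelial markers (orange); filled points passed at adjusted p below 0.05. *Rara* is filled in each of the 3 sets, at -0.84, 0.91 and 0.98, and *Nr2f2* was not tested in them.

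Between *Ahr*-/- and the libraries labelled *Ahrr*-/-, *Rara* was again the 1 tested member that differed without overlap, beside 4.61% of all genes tested, and 6 others passed with all 12 libraries: *Ppara*, *Ppard*, *Vdr*, *Hnf4g* and *Nr5a2* were higher and *Esr1* lower in the libraries labelled *Ahrr*-/-. This made 7 of 25 members beside 14.9% of 11474 genes (8.04% higher, 6.84% lower), with a median difference of 0.27 for the members and 0.00 for all genes. An unadjusted limma p below 0.05 was reached by 12 of the 25 members and by 32.8% of all genes. The balance of higher and lower genes rested on scaling, as 54.0% of those that passed were higher at first, 45.7% with each sample centred on its median and 44.3% after quantile normalization. Without the 3 libraries rich in epithelial markers, *Rara* alone of the 25 passed, beside 5.53% of 11320 genes, and the median of the members was 0.05. In that fit 8 members and 19.1% of all genes had an unadjusted limma p below 0.05. Between WT and the libraries labelled *Ahrr*-/-, limma passed 0 of 26 members, beside 0.0779% of 11546 genes. There 1 member, *Nr1d1*, had an unadjusted p below 0.05, beside 7.39% of all genes (difference 0.89, limma adjusted p = 0.658), and limma voom on the recovered counts also passed 0. Without the 3 libraries it passed 0 of 25, beside 0.0351% of 11408 genes, and an unadjusted p below 0.05 was reached by 0 members and 3.27% of all genes. The 3 comparisons share samples pairwise, so a low *Ahr*-/- group enters 2 of them.

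*Rara* (Entrez 19401) lies on chromosome 11 from 98927800 to 98974942 in GRCm38, where it shares 4984 bases with *Gm46294*, a gene outside the deposited table whose reads cannot be told apart from it. RefSeq (GRCm38.p6) lists 4 start sites for it and 2 for *Rxra*, and the windows from 250 bases before to 50 after the start are shown because these genes passed the test in opposite directions, so that the letters near their starts can be read beside the values. Capitals mark the AHR core GCGTG, which reads CACGC on the other strand, and the half-site AGGTCA, which reads TGACCT there, and a start within 100 bases of a printed one is left out. The *Rara* windows are chr11:98937446-98937745, chr11:98939461-98939760 and chr11:98964622-98964921, plus strand:
Rara window 1: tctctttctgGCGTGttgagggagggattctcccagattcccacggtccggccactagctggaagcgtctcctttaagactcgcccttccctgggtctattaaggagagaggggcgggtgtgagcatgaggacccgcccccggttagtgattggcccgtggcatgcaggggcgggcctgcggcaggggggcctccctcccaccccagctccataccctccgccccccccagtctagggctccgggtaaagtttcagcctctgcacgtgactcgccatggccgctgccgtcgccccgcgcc
Rara window 2: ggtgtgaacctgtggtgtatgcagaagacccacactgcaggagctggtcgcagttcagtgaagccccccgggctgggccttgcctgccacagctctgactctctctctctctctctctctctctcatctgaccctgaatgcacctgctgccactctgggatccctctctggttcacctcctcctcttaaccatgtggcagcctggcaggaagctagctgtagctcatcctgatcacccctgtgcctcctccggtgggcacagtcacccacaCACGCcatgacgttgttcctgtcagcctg
Rara window 3: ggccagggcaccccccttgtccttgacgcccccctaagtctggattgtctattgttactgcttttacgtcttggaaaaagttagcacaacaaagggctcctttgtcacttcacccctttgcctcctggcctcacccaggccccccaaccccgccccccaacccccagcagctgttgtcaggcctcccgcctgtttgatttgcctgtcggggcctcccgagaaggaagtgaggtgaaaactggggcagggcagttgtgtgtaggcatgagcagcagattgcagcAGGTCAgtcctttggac
GCGTG begins 240 bases before the start in the first, CACGC 21 bases after it in the second and AGGTCA 33 bases after it in the third. The *Rxra* windows are chr2:27676951-27677250 and chr2:27709042-27709341, plus strand:
Rxra window 1: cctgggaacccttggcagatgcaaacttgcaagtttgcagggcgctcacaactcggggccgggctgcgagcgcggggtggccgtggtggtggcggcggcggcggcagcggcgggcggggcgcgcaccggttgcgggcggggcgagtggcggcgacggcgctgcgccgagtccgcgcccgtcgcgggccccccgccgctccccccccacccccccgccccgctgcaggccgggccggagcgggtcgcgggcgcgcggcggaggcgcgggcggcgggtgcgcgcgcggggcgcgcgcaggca
Rxra window 2: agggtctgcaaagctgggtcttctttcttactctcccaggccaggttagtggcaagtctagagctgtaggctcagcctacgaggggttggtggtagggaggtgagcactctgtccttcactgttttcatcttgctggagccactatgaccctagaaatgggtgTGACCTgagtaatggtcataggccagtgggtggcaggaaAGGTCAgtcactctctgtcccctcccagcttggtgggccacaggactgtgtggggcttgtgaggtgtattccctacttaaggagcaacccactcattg
The first holds neither motif and 83.0% G or C, and the second holds TGACCT 87 and AGGTCA 48 bases before the start. GCGTG on either strand occurs in the first window of 32.5% of 27025 genes and of 20 of the 38 members with a window (52.6%), and AGGTCA on either strand in that of 4335 genes and of 7 of 38 members (18.4%), or in 16.3% of all 32851 windows. Such letters are frequent, and a match describes the window and is no evidence of binding.

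*Rara* had 449.4 to 708.0 normalized counts in WT (median 573.7), 213.6 to 422.3 in *Ahr*-/- (median 291.6) and 449.3 to 854.6 in the libraries labelled *Ahrr*-/- (median 605.2). Every *Ahr*-/- library lay below every library of the other genotypes, with F1 (218.6) and F2 (213.6) lowest and F3 (422.3) closest to WT F2 (449.4). *Rara* fell by 0.84 in *Ahr*-/- relative to WT (standard error 0.14, limma adjusted p = 0.00123), and the value was -0.97 with limma voom on the recovered counts. It was 0.91 higher in the libraries labelled *Ahrr*-/- than in *Ahr*-/- (standard error 0.17, limma adjusted p = 0.00379), and 0.98 higher without the 3 libraries rich in epithelial markers (standard error 0.17, limma adjusted p = 0.00317). Between WT and the libraries labelled *Ahrr*-/- the difference was 0.07 (standard error 0.15, limma adjusted p = 0.891). The *Rara* call held in 22 of 22 alternatives against the libraries labelled *Ahrr*-/-, and the adjusted p was at most 0.00493 over the alternatives against WT and 0.0139 over these. The eosinophil, neutrophil and endothelial marker sums also separated WT from *Ahr*-/- without overlap, and their part in the fall of *Rara* was not tested. Neutrophil sums likewise separated *Ahr*-/- (56077 to 113729) from the libraries labelled *Ahrr*-/- (24506 to 45784). This sum was carried by *Retnlg*. The mean deposited value of the list went the other way, 0.50 higher in the libraries labelled *Ahrr*-/- (exact permutation p = 0.169, adjusted p = 0.223). The eosinophil list differed by -0.45 in mean value there (exact permutation p = 0.00649, adjusted p = 0.0536). The part of these markers in the *Rara* difference between those genotypes was not tested either.

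*Rxra* (Entrez 20181, chromosome 2, 27676445 to 27763319) had 574.0 to 735.9 normalized counts in WT (median 676.6), 698.1 to 1116.4 in *Ahr*-/- (median 846.8) and 516.2 to 847.0 in the libraries labelled *Ahrr*-/- (median 699.2). The groups overlapped, since *Ahr*-/- M2 (698.1) lay within the WT range while the other 5 *Ahr*-/- libraries lay above it. *Rxra* was 0.38 higher in *Ahr*-/- than in WT (standard error 0.11, limma adjusted p = 0.04). This call was lost in 13 of 21 alternatives, where adjusted p reached 0.108. It was lost when any of WT F2, F3, M1 or M3 or *Ahr*-/- F1, F2, F3, M1 or M3 was left out (adjusted p 0.0566, 0.0975, 0.0575, 0.0584, 0.0501, 0.108, 0.0907, 0.0633 and 0.0859), with no minimum mean (0.0726), without the sex term (0.0545), with all 18 samples in the fit (0.0831) and with the replicate block (0.0748), while the difference stayed between 0.32 and 0.44. Relative to *Ahr*-/-, *Rxra* was at -0.35 in the libraries labelled *Ahrr*-/- (limma adjusted p = 0.0858) and at -0.32 without the 3 libraries rich in epithelial markers (limma adjusted p = 0.19), and it passed when labelled *Ahrr*-/- M1 was left out (-0.43, adjusted p = 0.0373).

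**Figure D4:**
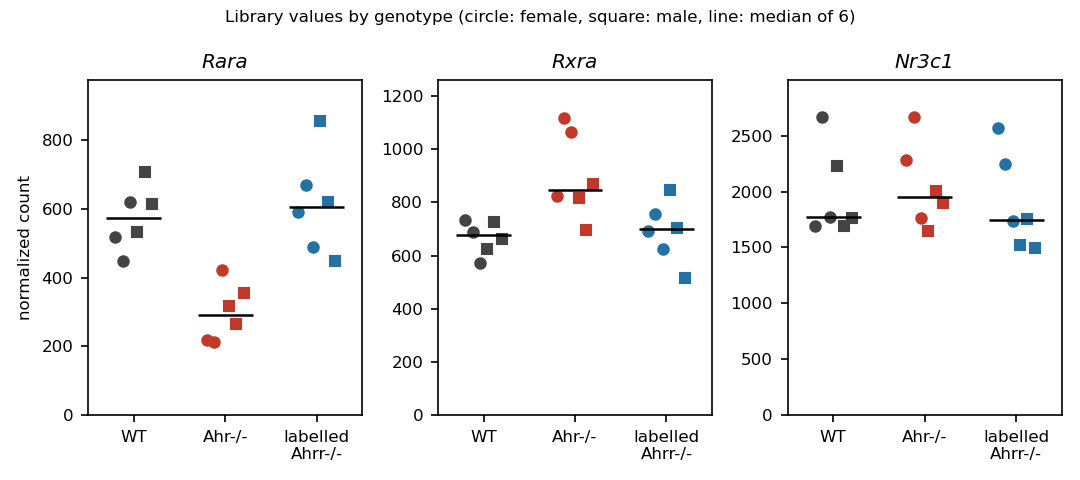
Normalized counts of *Rara*, *Rxra* and *Nr3c1* in each library by genotype (circles, females; squares, males; line, median of 6). *Rara* values of *Ahr*-/- (213.6 to 422.3) lie below all others, *Rxra* values overlap, and *Nr3c1* medians lie between 1744.5 and 1951.6.

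The other retinoid receptors did not pass. *Rxrb*, a second retinoid X receptor, spanned 142.5 to 203.1 normalized counts in WT, 179.7 to 270.4 in *Ahr*-/- and 133.1 to 217.0 in the libraries labelled *Ahrr*-/-. It had differences of 0.33 from WT to *Ahr*-/- (limma adjusted p = 0.0717) and -0.34 from *Ahr*-/- to the libraries labelled *Ahrr*-/- (adjusted p = 0.0543), the latter -0.23 without the 3 libraries. Like *Rxra*, it had its highest value in *Ahr*-/- F2, and F1, F2, F3 and M3 of *Ahr*-/- exceeded the highest WT library. *Rarg*, the gene of retinoic acid receptor γ, was low at 21.5 to 76.8 normalized counts, with differences of -0.04, -0.16 and -0.12 in the 3 comparisons (limma adjusted p = 0.883, 0.737 and 0.47), the last 2 being -0.09 and -0.04 without the 3 libraries.

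Of 20 genes of retinoid transport, synthesis and breakdown and of RAR targets, 12 were tested between WT and *Ahr*-/-. Of these 2 passed, beside 8.84% of all genes, with a median of 0.10 against 0.00 for all genes. *Dhrs3*, the enzyme that turns retinal back to retinol, had 41.3 to 161.4 normalized counts in WT and 149.3 to 216.8 in *Ahr*-/- and rose by 0.69 (limma adjusted p = 0.0173). *Ccr9*, a gut-homing chemokine receptor induced by retinoic acid in lymphocytes, went from 52.8 to 161.1 in WT to 24.3 to 59.2 in *Ahr*-/- and fell by 0.60 (limma adjusted p = 0.0377). *Dhrs3* passed in 19 of 20 alternatives, and not with all 18 samples in the fit (limma adjusted p = 0.0507). *Ccr9* passed in 9 of 20, and lost the call in 8 fits that left out 1 library, those without WT F3, M1 or M2 or any *Ahr*-/- library other than F3, with limma adjusted p up to 0.104. Between *Ahr*-/- and the libraries labelled *Ahrr*-/- 2 of 13 passed, *Lrat*, which esterifies retinol (0.60, limma adjusted p = 0.0331), and *Fabp5*, a carrier of fatty acids and retinoic acid (0.77, limma adjusted p = 0.0388), with a median of 0.09. Of all genes tested 14.9% passed there. Leaving out 1 library ended the *Lrat* call in 7 fits, those without *Ahr*-/- F1, F2, M2 or M3 or labelled *Ahrr*-/- F3, M1 or M3 (limma adjusted p up to 0.0869), and the *Fabp5* call in 8, those without any *Ahr*-/- library other than M3 or without the same 3 (up to 0.0871). In all they passed in 11 of 21 and 7 of 19 alternatives. *Fabp5* met the minimum mean through its values in the libraries labelled *Ahrr*-/- and did not pass with no minimum (limma adjusted p = 0.0642). Without the 3 libraries rich in epithelial markers *Lrat* did not pass (0.34, limma adjusted p = 0.349), *Fabp5* was below the minimum, and *Dhrs3* (-0.62, adjusted p = 0.036) and the retinol dehydrogenase *Dhrs9* (0.63, adjusted p = 0.036) did, again from limma. In that fit 5.53% of all genes passed. Between WT and the libraries labelled *Ahrr*-/- limma passed 0 of 13, with a median of 0.21 against 0.01. Without the 3 libraries this median was 0.08, and that between *Ahr*-/- and the libraries labelled *Ahrr*-/- went from 0.09 to 0.04.

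All 22 coregulators, the proteins that receptors recruit to switch genes on or off, were tested. Between WT and *Ahr*-/- 1 passed: *Ppargc1a*, the gene of the coactivator PGC-1α, went from 78.0 to 299.1 normalized counts in WT to 22.6 to 79.0 in *Ahr*-/- and fell by 0.87 (limma adjusted p = 0.0183). The highest *Ahr*-/- value lay just above the lowest WT value, and the call was lost without *Ahr*-/- F1 (-0.75, limma adjusted p = 0.0533) and with all 18 samples in the fit (-0.87, limma adjusted p = 0.154). Of all genes 8.84% passed in this comparison, and the median of the list was -0.07 against 0.00. Between *Ahr*-/- and the libraries labelled *Ahrr*-/- 3 passed, all higher in the latter: *Ppargc1a* (1.17, adjusted p = 0.0241), *Ppargc1b* (0.46, adjusted p = 0.0408) and *Ncoa7* (0.44, adjusted p = 0.0344), with limma and a median of -0.05 (0.01 without the 3 libraries). Beside these 3 of 22, 14.9% of all genes passed. The *Ppargc1a* call was lost without *Ahr*-/- F1, M1 or M3 or labelled *Ahrr*-/- M3 (limma adjusted p up to 0.0598) and without the sex term (0.053). Those of *Ppargc1b* and *Ncoa7* were lost in 8 and 7 of 12 fits without 1 library (limma adjusted p up to 0.0969 and 0.0869), among them the fits without *Ahr*-/- F1, F2, M1 or M2 or labelled *Ahrr*-/- F3 or M3. In all these 2 passed in 7 and 10 of 21 alternatives. With the 3 libraries rich in epithelial markers left out limma passed 0 of 22, and the values were 0.57, 0.38 and 0.34 (adjusted p = 0.152, 0.197 and 0.234). Between WT and the libraries labelled *Ahrr*-/- it passed 0 of 22, with a median of -0.10, which was -0.03 without the 3 libraries.

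Among the steroid receptors, *Nr3c1* (Entrez 14815, chromosome 18, 39410545 to 39519421) was the most abundant. It had 1689.1 to 2667.6 normalized counts in WT, 1649.8 to 2666.3 in *Ahr*-/- and 1496.2 to 2568.4 in the libraries labelled *Ahrr*-/-. The ranges overlapped almost wholly, with the highest value of each genotype in a female and the lowest of the 18 in the libraries labelled *Ahrr*-/- M3 (1496.2) and M1 (1518.1). Differences were 0.06, -0.07 and -0.12 in the 3 comparisons, with standard errors of 0.13, 0.16 and 0.13 (limma adjusted p = 0.843, 0.903 and 0.563). The last 2 turned to 0.12 and 0.05 without the 3 libraries rich in epithelial markers. The mineralocorticoid receptor gene *Nr3c2* spanned 53.1 to 215.2 normalized counts, highest in labelled *Ahrr*-/- M3, and passed in none of the 3 comparisons (differences of 0.00, 0.21 and 0.21, the last 2 turning to -0.14 and -0.06 without the 3 libraries).

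*Esr1*, the gene of estrogen receptor α, had 20.3 to 80.5 normalized counts in WT (median 44.2), 37.1 to 79.7 in *Ahr*-/- (median 52.5) and 12.6 to 53.5 in the libraries labelled *Ahrr*-/- (median 27.4). The last group was lowest, and its F1 (53.5) alone lay within the *Ahr*-/- range. *Esr1* was at -0.46 in the libraries labelled *Ahrr*-/- relative to *Ahr*-/- (standard error 0.14, limma adjusted p = 0.0367), and at -0.37 without the 3 libraries rich in epithelial markers (adjusted p = 0.232). The call was also lost in 8 of 12 fits that left out 1 library, those without *Ahr*-/- F2, F3, M1, M2 or M3 or labelled *Ahrr*-/- F3, M1 or M3, with adjusted p up to 0.0842. It was lost as well with no minimum mean, without the sex term, with all 18 samples in the fit and with the replicate block (limma adjusted p = 0.0749, 0.0694, 0.0575 and 0.0621). The estrogen-related receptor genes *Esrra* (49.6 to 102.1 normalized counts) and *Esrrg* (10.1 to 148.9), known for control of mitochondrial genes, did not pass. *Esrra* differences were 0.07, 0.11 and 0.03, and those of *Esrrg* -0.36, 0.18 and 0.54. Left without the 3 libraries, the last 2 were 0.09 and -0.04 for *Esrra* and -0.30 and 0.14 for *Esrrg*. *Esrra* shares 52 bases with *Trmt112*, and since no strand information is stated for the library kit, reads of overlapping genes cannot be told apart.

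All 11 genes of the glucocorticoid receptor target list were tested. Of all genes tested, 8.84% passed between WT and *Ahr*-/- and 14.9% between *Ahr*-/- and the libraries labelled *Ahrr*-/-. Between WT and *Ahr*-/- 2 passed, the kinase gene *Sgk1*, which rose by 0.67 from a median of 132.2 to 226.0 normalized counts (limma adjusted p = 0.038), and *Ddit4*, an inhibitor of mTORC1, which fell by 0.56 from 77.4 to 51.5 (limma adjusted p = 0.0355), with a list median of 0.13. Leaving out 1 library ended the *Sgk1* call in 7 of 12 fits, those without WT F1, F2 or M3 or *Ahr*-/- F2, F3, M1 or M2 (limma adjusted p up to 0.0908). It ended the *Ddit4* call in 10, those without any library other than WT F2 or *Ahr*-/- F3 (limma adjusted p up to 0.0938). In all they passed in 10 and 6 of 20 alternatives. Between *Ahr*-/- and the libraries labelled *Ahrr*-/- *Klf9* passed (0.55, limma adjusted p = 0.0493, median of the list -0.14, and -0.01 without the 3 libraries rich in epithelial markers). It did so in 2 of 12 fits without 1 library, those without labelled *Ahrr*-/- F2 or M2 (limma adjusted p otherwise up to 0.117) and in 6 of 21 alternatives in all, and without the 3 libraries rich in epithelial markers it did not (0.27, adjusted p = 0.449). Between WT and the libraries labelled *Ahrr*-/- limma passed 0 of 11, with a median of 0.18.

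The genes of the lipid-sensing PPARs were high in the libraries rich in epithelial markers. *Ppara* (Entrez 19013, chromosome 15, 85734910 to 85806851), a driver of fatty acid oxidation, had 19.2 to 57.3 normalized counts in WT (median 32.5), 7.5 to 30.1 in *Ahr*-/- (median 16.7) and 12.9 to 101.4 in the libraries labelled *Ahrr*-/- (median 52.9). *Ppard* (Entrez 19015, chromosome 17, 28232754 to 28301469) had 139.1 to 319.3 in WT (median 179.4), 101.6 to 170.6 in *Ahr*-/- (median 128.2) and 144.8 to 412.1 in the libraries labelled *Ahrr*-/- (median 266.7). Both were highest in libraries with many epithelial markers: *Ppara* in labelled *Ahrr*-/- M1, M3 and F3, and *Ppard* in labelled *Ahrr*-/- M3 and F3 and in WT F1. Relative to *Ahr*-/-, *Ppara* was 0.67 (standard error 0.17, limma adjusted p = 0.0216) and *Ppard* 0.76 higher (standard error 0.18, limma adjusted p = 0.0143) in the libraries labelled *Ahrr*-/-. Without the 3 libraries the differences were 0.33 and 0.49 (limma adjusted p = 0.258 and 0.12). *Ppara* met the minimum mean through its values in the libraries labelled *Ahrr*-/- (mean deposited value 6.69, against 6.01 in *Ahr*-/-). It passed with no minimum too (limma adjusted p = 0.0399). With limma voom and all 12 libraries the differences were 1.60 for *Ppara* and 1.03 for *Ppard*. The *Ppara* call was lost without *Ahr*-/- M1 or M3 (limma adjusted p = 0.0513 and 0.0575) and without the sex term (0.0592), and that of *Ppard* held in 12 of 12 fits without 1 library. From WT to *Ahr*-/- the differences were -0.42 and -0.41 and did not pass (limma adjusted p = 0.115 and 0.151). *Ppard* shares 1456 bases with the weakly expressed *1810013A23Rik*.

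Of 18 PPAR target genes, 15 were tested. *Plin2*, which coats lipid droplets, had 400.0 to 555.9 normalized counts in WT, 556.4 to 1143.3 in *Ahr*-/- and 336.3 to 846.6 in the libraries labelled *Ahrr*-/-. It rose by 0.89 in *Ahr*-/- relative to WT (limma adjusted p = 0.00094), with no overlap, as for 4.51% of all genes tested, and passed under 21 of 21 alternatives. It was at -0.79 in the libraries labelled *Ahrr*-/- relative to *Ahr*-/- (limma adjusted p = 0.0186), a call lost without *Ahr*-/- M1 (-0.71, adjusted p = 0.0513) and without the 3 libraries (-0.66, adjusted p = 0.114). *Plin2* was the 1 gene of the list that passed in either comparison. Beside this 1 of 15, 8.84% and 14.9% of all genes passed in them. The medians were 0.15 and 0.14, and between WT and the libraries labelled *Ahrr*-/- limma passed 0 of 15, with a median of 0.18. The last 2 medians turned to -0.20 and -0.01 without the 3 libraries.

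The oxysterol receptors LXRα and LXRβ are encoded by *Nr1h3* and *Nr1h2*. *Nr1h2* was even, with 186.5 to 308.6 normalized counts in WT, 204.2 to 316.2 in *Ahr*-/- and 197.4 to 323.4 in the libraries labelled *Ahrr*-/-, and differences of 0.05, 0.06 and 0.01, the last 2 at 0.10 and 0.02 without the 3 libraries. *Nr1h3* spanned 8.0 to 106.4, with its highest value in labelled *Ahrr*-/- M1, and did not pass (0.56 between *Ahr*-/- and the libraries labelled *Ahrr*-/-, limma adjusted p = 0.0598, and 0.24 without the 3 libraries). It shares 18 bases with the more abundant *Acp2*. Of 13 LXR targets 11 were tested between WT and *Ahr*-/-. Of these 2 passed, both higher in *Ahr*-/-, beside 8.84% of all genes (5.16% higher), with a list median of 0.02. *Pltp*, the phospholipid transfer protein gene, went from 0.0 to 19.2 normalized counts in WT to 20.2 to 103.7 in *Ahr*-/- (1.31, limma adjusted p = 0.000811), and *Lpcat3*, a phospholipid remodelling enzyme, from 506.1 to 683.7 to 664.0 to 932.2 (0.42, limma adjusted p = 0.0172). With limma voom the differences were 3.83 for *Pltp* and 0.45 for *Lpcat3*. *Pltp* met the minimum mean through its *Ahr*-/- values, and passed with no minimum too (limma adjusted p = 0.00267). *Pltp* values did not overlap, as for 4.51% of all genes tested, *Lpcat3* values did, and both passed under every alternative run. In the libraries labelled *Ahrr*-/- *Pltp* lay between, at 12.3 to 47.8, and differed from *Ahr*-/- by -0.88 without the 3 libraries (limma adjusted p = 0.0292). With all 12 libraries limma passed 0 of 11 there (median 0.09), and 0 of 10 between WT and the libraries labelled *Ahrr*-/- (median 0.20).

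*Vdr* (Entrez 22337, chromosome 15, 97854427 to 97908296), the gene of the vitamin D receptor, had 374.2 to 1191.7 normalized counts in WT (median 454.0), 198.9 to 543.8 in *Ahr*-/- (median 338.9) and 305.1 to 1687.4 in the libraries labelled *Ahrr*-/- (median 738.1). Its 4 highest values were those of labelled *Ahrr*-/- M3, WT F1, and labelled *Ahrr*-/- F3 and M1, the 4 libraries with the most epithelial markers. *Vdr* was 0.90 higher in the libraries labelled *Ahrr*-/- than in *Ahr*-/- (standard error 0.27, limma adjusted p = 0.0388), and 0.38 without the 3 libraries (adjusted p = 0.221). The call was lost in 7 of 12 fits without 1 library, those without any *Ahr*-/- library other than F3 or without labelled *Ahrr*-/- F3 or M3, with adjusted p up to 0.0976, and also with no minimum mean (0.0604), without the sex term (0.103) and with all 18 samples in the fit (0.0568). From WT to *Ahr*-/- the difference was -0.60 (limma adjusted p = 0.153), and -0.34 without WT F1 (limma adjusted p = 0.227).

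The bile acid receptor gene *Nr1h4* (FXR) had 45.4 to 161.4 normalized counts in WT, 22.9 to 96.9 in *Ahr*-/- and 29.0 to 346.4 in the libraries labelled *Ahrr*-/-, again with F3 and M3 of the latter highest. Its differences of -0.36, 0.26 and 0.63 did not pass (limma adjusted p = 0.296, 0.817 and 0.161), and the last 2 were -0.30 and 0.09 without the 3 libraries, the former turned in sign. The value of 0.09 is adjusted for sex, with F1, F2 and M2 left in the second group, and the group means were 6.89 and 6.87. The xenobiotic receptor gene *Nr1i2* (PXR) had 40.1 to 77.2 normalized counts in WT, 13.7 to 51.7 in *Ahr*-/- and 32.2 to 142.3 in the libraries labelled *Ahrr*-/-. From WT to *Ahr*-/- its difference was -0.43 (standard error 0.14, limma adjusted p = 0.0771), short of the threshold. From *Ahr*-/- to the libraries labelled *Ahrr*-/- it was 0.60, and 0.35 without the 3 libraries (limma adjusted p = 0.0802 and 0.277). Of 12 genes of the list of PXR, CAR, vitamin D and thyroid hormone receptor targets, 4 were tested and limma passed 0 in each of the 3 comparisons, with medians of -0.02, 0.47 and 0.35, of which the last 2 turned to -0.13 and -0.06 without the 3 libraries.

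*Hnf4g* (Entrez 30942, chromosome 3, 3508030 to 3659800), an HNF4 gene known from enterocytes, had 230.3 to 638.6 normalized counts in WT (median 289.6), 112.7 to 419.6 in *Ahr*-/- (median 177.5) and 144.0 to 1156.7 in the libraries labelled *Ahrr*-/- (median 655.3). *Nr5a2* (Entrez 26424, chromosome 1, 136842562 to 136960448), the gene of LRH-1, had 46.4 to 222.0 in WT (median 132.1), 43.6 to 108.2 in *Ahr*-/- (median 61.8) and 53.7 to 319.3 in the libraries labelled *Ahrr*-/- (median 223.7). For both genes the 4 libraries with the most epithelial markers held the 4 highest values, and labelled *Ahrr*-/- F1 and F2, with few epithelial markers, lay within the *Ahr*-/- range. *Hnf4g* was 1.05 (standard error 0.33, limma adjusted p = 0.0468) and *Nr5a2* 0.94 higher (standard error 0.21, limma adjusted p = 0.0103) in the libraries labelled *Ahrr*-/- than in *Ahr*-/-. The differences were 0.29 and 0.51 without the 3 libraries (limma adjusted p = 0.475 and 0.0906). These are adjusted for sex, and the group means were 8.03 and 8.17 for *Hnf4g* and 6.95 and 7.35 for *Nr5a2*. The *Hnf4g* call was lost in 8 of 12 fits without 1 library, those without any *Ahr*-/- library other than F3 or without labelled *Ahrr*-/- F3, M1 or M3, with adjusted p up to 0.115, and also with no minimum mean (0.0724) and without the sex term (0.12). That of *Nr5a2* held in these 12 fits and was lost without the sex term (limma adjusted p = 0.0511). From WT to *Ahr*-/- they differed by -0.61 and -0.51 (limma adjusted p = 0.122 and 0.171), and each passed in 1 fit without a library, *Hnf4g* without *Ahr*-/- M2 (-0.77) and *Nr5a2* without WT F2 (-0.67), both at an adjusted p of 0.0472. Without WT F1 they were -0.39 and -0.34 (limma adjusted p = 0.199 and 0.319).

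**Figure D5:**
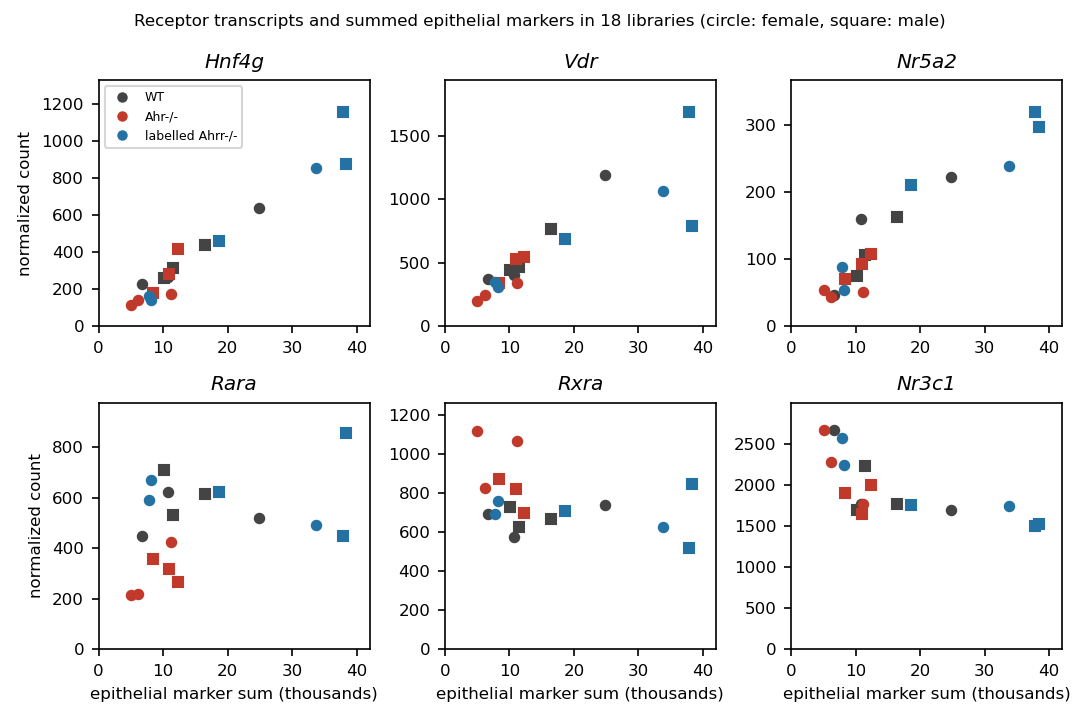
Normalized counts of 6 members against the summed normalized counts of 16 epithelial markers in the 18 libraries, coloured by genotype (circles, females; squares, males). *Hnf4g*, *Vdr* and *Nr5a2* are highest in the 4 libraries with the largest sums, the 6 *Ahr*-/- libraries have the lowest *Rara* values, and *Nr3c1* lies between 1496.2 and 2667.6.

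The plot against epithelial markers shows these genes beside *Rara*, *Rxra* and *Nr3c1*, and whether the marker level accounts for any of their differences was not tested. *Nr3c1*, in contrast to *Hnf4g*, had its lowest values in labelled *Ahrr*-/- M3 and M1.

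Receptors of thyroid hormone and of the circadian clock did not pass. *Thra* spanned 27.2 to 195.6 normalized counts and *Thrb* 38.7 to 218.3, both highest in labelled *Ahrr*-/- M3, with differences of 0.06 and 0.06 from WT to *Ahr*-/- (limma adjusted p = 0.893 and 0.864) and of 0.32 and 0.07 from there to the libraries labelled *Ahrr*-/- (adjusted p = 0.214 and 0.861). The latter went to 0.02 for *Thra* and turned to -0.32 for *Thrb* without the 3 libraries rich in epithelial markers. *Nr1d1*, the gene of the clock repressor REV-ERBα, had 4.1 to 65.3 in WT, 20.9 to 53.7 in *Ahr*-/- and 6.4 to 184.3 in the libraries labelled *Ahrr*-/-, where F3, M1 and M3 reached 157.1, 165.1 and 184.3. It shares 1075 bases with *Thra* on chromosome 11, and part of these reads cannot be told apart. Its difference between WT and the libraries labelled *Ahrr*-/- went from 0.89 to 0.06 without those 3 libraries, and that between *Ahr*-/- and the libraries labelled *Ahrr*-/- from 0.67 to -0.12. *Nr1d2* spanned 42.1 to 189.3 and differed by -0.05, 0.22 and 0.27, the last 2 at 0.03 and 0.06 without them.

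Of 10 REV-ERB and ROR targets 8 were tested, and limma passed 0 between WT and *Ahr*-/- (median -0.09) and 0 between WT and the libraries labelled *Ahrr*-/- (median 0.04, and 0.02 without the 3 libraries). Between *Ahr*-/- and the libraries labelled *Ahrr*-/- 2 passed, beside 14.9% of all genes, with a median of -0.14, which was 0.01 without the 3 libraries. The clock activator gene *Clock* had 336.4 to 545.7 normalized counts in *Ahr*-/- and 467.5 to 867.7 in the libraries labelled *Ahrr*-/- (0.52, limma adjusted p = 0.0355), and the clock output gene *Tef* 378.0 to 479.8 and 140.8 to 366.3 (-0.77, limma adjusted p = 0.0138). *Tef* values did not overlap, as for 4.61% of all genes tested, and it passed in 12 of 12 fits without 1 library. *Clock* passed in 6, and not without *Ahr*-/- F1, F2, M1 or M3 or labelled *Ahrr*-/- F3 or M3 (limma adjusted p up to 0.0921), and in 12 of 22 alternatives in all. With those 3 libraries rich in epithelial markers left out, the values were 0.47 for *Clock* and -0.36 for *Tef* (limma adjusted p = 0.0743 and 0.0799).

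The orphan receptor genes *Nr2c1*, *Nr2c2*, *Nr2f2* and *Nr6a1* did not pass either. *Nr2c2* (TR4) was the most abundant of them, with 738.3 to 924.4 normalized counts in WT, 604.8 to 868.8 in *Ahr*-/- and 537.9 to 858.5 in the libraries labelled *Ahrr*-/-, and differences of -0.20, -0.26 and -0.06 (limma adjusted p = 0.272, 0.671 and 0.77), the last 2 at -0.14 and 0.08 without the 3 libraries rich in epithelial markers. It shares 3547 bases with *Mrps25*. *Nr2c1* (TR2) spanned 33.2 to 169.7, highest in *Ahr*-/- M1 and M2, with a difference of 0.34 from WT to *Ahr*-/- (limma adjusted p = 0.212). *Nr6a1* spanned 38.7 to 165.4, and *Nr2f2* (COUP-TFII) 4.3 to 52.8, with labelled *Ahrr*-/- M1, F3 and M3 at 52.8, 41.9 and 38.5. *Nr2f2* differed by 0.35 between WT and the libraries labelled *Ahrr*-/- (limma adjusted p = 0.676).

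Sex was compared over the 18 libraries with genotype as covariate. Of 25 members limma passed 0, beside 3.06% of 11468 genes, with 0 passed by limma voom. An unadjusted p below 0.05 was reached by 5 members and by 18.7% of all genes. Those 5 were *Nr1h2* (male minus female -0.26, limma adjusted p = 0.12), *Rarg* (-0.24, 0.186), *Hnf4g* (0.67, 0.209), *Nr3c1* (-0.26, 0.239) and *Nr5a2* (0.45, 0.267), and the median was 0.07 against 0.01 for all genes. The males labelled *Ahrr*-/- M3 and M1, rich in epithelial markers, held the highest *Hnf4g* and *Nr5a2* values and the lowest of *Nr3c1*. Sex was not fitted without the libraries rich in epithelial markers. *Rara* differed by 0.15 between the sexes (limma adjusted p = 0.539). Among the pathway lists *Tgm2* (-0.93, limma adjusted p = 0.0175), *Dhrs9* (-0.53, 0.0392), *Per1* (-0.90, 0.015) and *Ddit4* (-0.75, 0.0451) were lower and *Cd36* (0.68, 0.0309) higher in males. The genotype effect itself was not found to differ by sex: the interaction passed limma for 0 of 25 members between WT and *Ahr*-/- and 0 of 26 between WT and the libraries labelled *Ahrr*-/-, beside 0% of all genes in each. Members with an unadjusted p below 0.05 numbered 0 and 1, beside 4.70% and 4.71% of all genes, limma voom passed 0 in both, and the interaction of *Rara* was -0.05 (standard error 0.29) and -0.11 (standard error 0.31). With 3 animals per sex and genotype these standard errors are large, so a difference between the sexes of the size of the genotype effect could not be shown or dismissed for most members.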

How the data were processed

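Bulk RNA-seq of eosinophils sorted from the small intestine of 18 mice was analysed, 6 per genotype with 3 of each sex. Per the submitters' notes reads were aligned with STAR 2.5.2 and counted with RSEM 1.3.0 on GRCm38/mm10. The authors deposited log2 values made by the variance-stabilising transformation of DESeq2 under R 4.0.3, for 22708 genes; the DESeq2 version is not given in the sources used here. Counts were recovered by inverting the transformation and were used for depth, levels and count-based alternatives. Median depth was 6022409, 9647589 and 10371556 counts in WT, *Ahr*-/- and labelled *Ahrr*-/-.

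The deposited values were fitted in R 4.3.3 with limma 3.58.1 (trend, genotype and sex as terms, genes with a mean at least 1 above the lowest value, Benjamini-Hochberg threshold 0.05), and the fitting code was tested on simulated data. Differences are second genotype minus first, and male minus female. Marker list levels were compared by exact permutation (924 regroupings, 33 tests adjusted together). Tables and plots used Python 3.11.15, numpy 2.4.6, pandas 2.3.3 and matplotlib 3.10.9. RefSeq (GRCm38.p6) matched 22685 genes and gave windows for 38 of 42 members. Exon lengths, the union of the exons of a gene, came from the GENCODE annotation and were available for 20294 genes.

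The 42 members were taken by gene symbol, and 7 pathway and 11 cell marker lists were written from common knowledge. The members and lists were chosen with earlier results of these data known. A gene is named with its values if it is a member above the minimum mean, a list gene that passed, a targeted gene or a marker. Alternatives were no minimum or a minimum of 3, no sex term, centring on the median, quantile normalization, log2(normalized count + 1) values, limma voom, all 18 samples in a single fit, a replicate block, each library left out, and, chosen after the data were seen, the 3 libraries rich in epithelial markers left out. A library was set apart above 2.5 times the median epithelial marker sum. Not in the table were 4 list genes. Protein levels were not analysed here.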

Additional observations from a re-analysis of the deposited data

Results flagged for a closer look

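A rule for single values far from the rest of their group (Dixon's ratio at the 0.05 level) was run on 78 groups and marked 5, all of them levels of marker lists as mean deposited values. By chance such a rule marks about 1 in 20 groups. The neutrophil list was high in WT F3 at 8.15 (next 7.81), in *Ahr*-/- F3 at 9.19 (next 7.87) and in labelled *Ahrr*-/- F2 at 9.59 (next 8.58). The pancreatic acinar list was high in *Ahr*-/- M1 at 6.50 (next 5.44) and in labelled *Ahrr*-/- M1 at 7.66 (next 6.03). None of the 13 members checked was marked. These libraries were kept, and fits without each of them are among those that left out 1 library.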

How the results depend on the processing

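Between WT and *Ahr*-/- the 2 members that passed limma became 1 with no minimum mean, without the sex covariate, with all 18 samples in the fit and with the replicate block, and 1 to 4 with a library left out (1 without WT F3, 4 without *Ahr*-/- M2). Genes passing numbered 1003 in all, 553 with all 18 samples, and 623 (without *Ahr*-/- F1) to 1124 (without WT F2) with a library left out. Between WT and labelled *Ahrr*-/- the members passing were 0 throughout. All genes passing there were 9 at first, 4 with no minimum mean, centred samples, log2(normalized count + 1), voom, the replicate block and the 3 libraries rich in epithelial markers left out, 5 with a minimum of 3 or quantile normalization, 14 with all 18 samples, and 4 (without WT F1) to 25 (without labelled *Ahrr*-/- F1) with a library left out. Differences in that comparison that were near 0 changed sign without any call: *Rxra* to -0.01 when centred or without WT F3 and to -0.03 without labelled *Ahrr*-/- M1, and *Rara* to -0.02 without M1, while without M3 they were 0.11 and 0.17. Without the 3 libraries *Hnf4g* went to -0.41, *Nr5a2* to -0.07, *Ppara* to -0.16 and *Vdr* to -0.31. Between *Ahr*-/- and labelled *Ahrr*-/- the 7 members became 3 with a minimum of 3, 2 without the sex covariate, 1 without the 3 libraries and 3 (without *Ahr*-/- M1) to 11 (without labelled *Ahrr*-/- F2) with a library left out. All genes passing went from 1708 to 828, 994 and 626 under the first 3, and to 818 (without *Ahr*-/- M3) to 2574 (without labelled *Ahrr*-/- F1). Differences of low genes were larger with limma voom. In that comparison they were -0.92 for *Esr1*, 1.48 for *Nr5a2*, 1.35 for *Lrat*, 2.08 for *Fabp5*, 1.13 for *Klf9*, 1.87 for *Ppargc1a* and 0.96 for *Ppargc1b*. From WT to *Ahr*-/- they were -0.99 for *Ccr9*, -0.89 for *Ddit4* and -1.41 for *Ppargc1a*. Between the sexes 351 genes became 163 with no minimum mean. Equal replicate labels did not pair the samples, and with the replicate block members passing were 1, 0 and 8 in the 3 comparisons. Limits are 6 animals per genotype, *Ahr*-/- mice that were neither littermates of WT nor housed with them, bulk RNA in which markers of other cells were found and their source was not tested, and an *Ahrr*-/- label that no value checks. Sort date, animal age and batch are not in the labels, and for age the study's methods state a range only. The shift of the 3 libraries was seen, and the cause was not tested.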
